A study of Mus musculus with 2 samples.

Results

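The Runx genes and Cbfb encode the core binding factors, and GATA4 binding around them was mapped in mouse myoblasts by chromatin immunoprecipitation sequencing (ChIP-seq). The 4 genes were Runx1, Runx2, Runx3 and Cbfb. A peak, a stretch of genome with an excess of precipitated fragments, was assigned to a gene when its centre lay in the RefSeq gene span or within 100 kb of it (GRCm38 coordinates). By this rule 35 of the 17539 deposited GATA4 peaks belonged to the 4 genes: 15 to Runx1, 11 to Runx2, 6 to Runx3 and 3 to Cbfb.

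GATA4 is a zinc finger transcription factor best known from the heart, and myoblasts are the proliferating precursors of muscle fibres. Both samples were myoblasts grown out from satellite cells of the stock named Myf5tm1Pas/J, a targeted Myf5 allele that the control shares, on collagen in Ham's F10 medium with 20% FBS and 20 ng/ml bFGF. One sample was precipitated with a mixture of 3 GATA4 antibodies (C-20, H-112 and eBioevan) and the other with control IgG. There was 1 library per antibody, the labels name no age, sex or number of animals, and the peak list carries no read numbers, so the depth is unknown and no spread between replicates can be given. A peak list does not measure expression, so the myoblast label was not checked against marker genes.

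RUNX proteins bind DNA through the Runt domain, and CBFB, which does not bind DNA itself, pairs with that domain and strengthens its hold on DNA. RUNX1 is required for blood stem cells to arise, RUNX2 for bone formation, and RUNX3 for T cell subsets and sensory neurons. In muscle, Runx1 is known to be switched on after denervation and injury. Mammalian Runx genes are transcribed from a distal and a proximal promoter, so a peak can lie at either.

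The transcription starts were read from RefSeq promoter windows of GRCm38.p6, each running from 250 bases before a listed start to 50 after it. All 4 genes matched, with 6 windows: a distal and a proximal one for Runx1 and for Runx3, and 1 each for Runx2 and Cbfb. The proximal window of Runx1 is shown because it was the only one of the 6 that shared a base with a GATA4 peak. The 250 bases before its start, on the minus strand at chr16:92697330-92697579, read 5′ to 3′ as follows, with capitals marking the letters GATA and GGAATG, a core recognised by TEAD factors.
Runx1 proximal: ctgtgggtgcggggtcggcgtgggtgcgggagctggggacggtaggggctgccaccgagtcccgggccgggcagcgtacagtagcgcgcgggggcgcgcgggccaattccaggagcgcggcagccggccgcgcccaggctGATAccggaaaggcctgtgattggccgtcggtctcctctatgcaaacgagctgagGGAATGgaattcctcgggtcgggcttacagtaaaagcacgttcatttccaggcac

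Neither match overlapped the other, and both are matches of letters, not measured binding sites. The letters GATA, on either strand, began at -110, counted from the start. They occurred in 57.9% of the 32851 promoter windows of the table, so their presence is common. The fuller GATA words (AGATAA or AGATAG and, with T in first place, TGATAA or TGATAG), searched on both strands, were in 0 of the 6 member windows and in 29.8% of all windows. GGAATG on either strand was in 1 of the 6 and in 14.7% of all. G and C made up 69.0% of the proximal Runx1 window and 69.7% of the Cbfb window, but 45.0% and 45.3% of the distal Runx1 and Runx2 windows. The peaks' own sequences outside promoter windows were not analysed here.

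The distal windows of the 3 Runx genes are shown for a stretch of 18 bases that was identical in all 3 and holds a pair of RUNX sites. Capitals mark TGTGGT or TGCGGT on either strand (read here mostly as ACCACA). Each line gives 30 bases, at chr16:92826025-92826054 on the minus strand for Runx1, chr17:44814583-44814612 on the minus strand for Runx2, and chr4:135120503-135120532 on the plus strand for Runx3.
Runx1 distal: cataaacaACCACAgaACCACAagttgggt
Runx2 distal: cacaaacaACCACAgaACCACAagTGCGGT
Runx3 distal: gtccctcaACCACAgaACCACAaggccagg

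Among all promoter windows only 4 held the 18 bases, those of the 3 genes and that of Gm16225, a lncRNA gene beside Runx3. Because Gm16225 lies beside Runx3, the 4 windows need not be 4 separate stretches of the genome. Counted from the listed start, the stretch began at 26 in Runx1 and 21 in Runx2, both in the transcribed part, and at -136 in Runx3, upstream of it. Single RUNX words were common, with TGTGGT or TGCGGT in 22.4% of all windows. None of the 3 distal windows shared a base with a GATA4 peak, so no peak of this list covered the paired RUNX sites. At Runx1 the nearest peak ended at chr16:92825884 and the 18 bases began at chr16:92826031. That gap is shorter than the fragments of 200 to 500 bp, so binding at these Runx1 sites and beside them cannot be told apart.

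Runx1 lies on the minus strand at chr16:92601466-92826074, a span of 224.6 kb. Its 15 peaks made it the richest of the 4 genes, with 10 inside the gene, 3 upstream and 2 downstream. The scores, the values the authors' peak caller MACS gave each peak and comparable only within this list, ran from 53.2 to 206 with a median of 92.4. Over all peaks of the list the median was 99.3 and the quartiles were 77.7 and 138. Peaks in Runx1 were therefore many but of ordinary score, with 7 of the 15 above the median of the list.

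**Figure D1:**
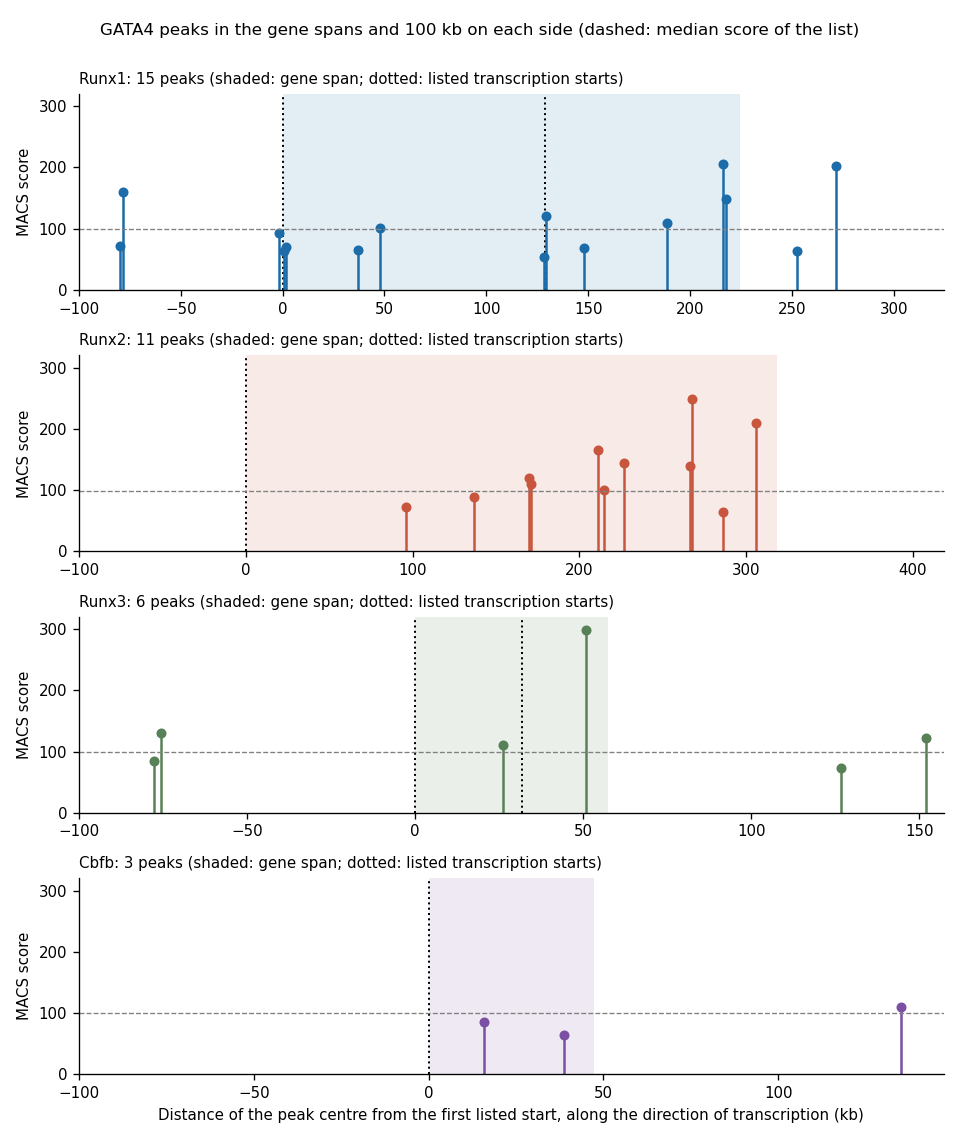
GATA4 peaks of Runx1, Runx2, Runx3 and Cbfb, 1 panel per gene, with the distance of the peak centre from the first listed transcription start (kb, along the direction of transcription) on the x axis and the MACS score on the y axis. Each stem is 1 peak. The shading is the gene span, dotted lines are listed starts and the dashed line is the median score of the list. Runx1 has peaks at both starts, whereas the first Runx2 peak lies 96.1 kb after its 1 listed start, the distal one.

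Both Runx1 starts had peaks close by. At the proximal start, a peak at chr16:92697270-92698020 covered the whole promoter window and was centred 0.316 kb upstream of the start, with a score of 53.2. A second peak at chr16:92696222-92697053 was centred 0.692 kb downstream and scored 121. The peak over the promoter was thus the lowest of the 15, and 0.952% of the list scored below it. Its neighbour just inside the transcribed part had a score above that of 64.3% of the list.

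The distal start had a peak on its upstream side and a pair on its downstream side. The upstream peak (chr16:92827698-92828369) was centred 1.96 kb before the start and scored 92.4. The downstream pair was centred 0.572 kb (chr16:92825120-92825884, score 63.7) and 1.57 kb (chr16:92824182-92824818, score 69.6) after the start. All 3 were below the median score of the list, and none reached into the promoter window itself.

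In all, 5 Runx1 peaks were centred within 2 kb of a listed start. Of 17492 protein coding genes with a listed start, 1873 (10.7%) had 1 peak or more within that distance and only Runx1 had as many as 4 or 5. It was also alone at that number among the 2761 genes with 2 listed starts or more. The distance was chosen after the values were seen. Of the 5 peaks, 4 lay in 2 pairs with centres 1.00 and 1.01 kb apart. Whether the peaks of a pair are separate was not tested, and they were not joined for this count. Only 1 of the 5, with a score of 121, was above the median score of the list (99.3). Within 1 kb Runx1 had 3, as did Dynlt1f, Idh1, Rbms2 and Rtn4, and within 5 kb it had 5, behind Tpst2 with 6 and level with Gm36327 and Gm40364. Runx2, Runx3 and Cbfb had no peak within 5 kb of a listed start.

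The highest-scoring Runx1 peaks lay far from both starts. The highest, at chr16:92609103-92610400 with a score of 206 and a width of 1298 bp, was inside the gene 216 kb from the distal start, towards the 3′ end. A neighbour 1.35 kb away (chr16:92607997-92608802) scored 149. Of similar score was a peak beyond the 3′ end, at chr16:92553324-92555073. It scored 203, was 1750 bp wide, the widest of all 35, and lay 47.3 kb from Runx1 and 12.96 kb from Clic6. Upstream, 78.3 kb before the distal start, a peak at chr16:92903941-92904785 scored 159, and its partner at 79.6 kb scored 71.6. The gene nearest to both was Gm41499, at 52.6 and 51.3 kb.

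The other Runx1 peaks were scattered through the gene. Those between the starts were at 37.2 and 47.7 kb from the distal one, scoring 66.0 and 101, and the next 80.8 kb of the gene, up to the proximal start, had none. Past the proximal start, peaks at 148 and 189 kb from the distal one scored 69.0 and 109. The remaining downstream peak, 28.1 kb beyond the gene, scored 62.95, and the gene nearest to it was Gm30224 at 10.1 kb. Exons and introns were not analysed here, so no peak is assigned to either.

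Runx2 lies on the minus strand at chr17:44495987-44814797, a span of 318.8 kb, and the promoter table lists 1 start for it, at 44814627. All 11 of its peaks were inside the gene and none lay in the 100 kb on either side. They began 96.1 kb after the listed start and ended at 306 kb, so the first 30.2% of the span held none. The proximal Runx2 promoter has no window in the table, so peaks near it were not looked for, whereas both starts of Runx1 are listed. The next peaks beyond the gene were 133 kb upstream and 234 kb downstream.

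Runx2 peaks scored 119 in the median (range 65.1 to 249), and 8 of the 11 were above the median of the list. The highest, with a score of 249, was at chr17:44546321-44547276, 268 kb from the start. Its score was above that of 95.8% of the list. It was paired with a peak of score 139 at a distance of 1.55 kb (chr17:44547871-44548817). The second highest was at chr17:44508129-44509193, 306 kb from the start and nearest the 3′ end, with a score of 210.

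The remaining Runx2 peaks scored below the 2 highest. At 227 kb a peak of 1264 bp scored 145, at 215 and 211 kb peaks scored 100.02 and 166, and at 171 and 170 kb a pair scored 110 and 119. The peaks at 286, 137 and 96.1 kb scored 65.1, 88.3 and 72.3. The 2 nearest to the listed start were thus among the 3 lowest of the gene. Supt3, which encodes a subunit of the SAGA chromatin complex, overlaps the 5′ part of Runx2 on the map. Its own window of 6 peaks shared 2 with that of Runx2, and no Runx2 peak was inside Supt3.

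Runx3 lies on the plus strand at chr4:135120645-135177990, a span of 57.3 kb. It held the highest-scoring peak of the 4 genes. This peak, at chr4:135171196-135171981, scored 299, rank 369 of 17539, and lay inside the gene 50.9 kb from the distal start and 19.0 kb past the proximal one. The other peak inside the gene (chr4:135146640-135147228) scored 110 and was centred 5.61 kb before the proximal start. No Runx3 peak touched a Runx3 promoter window.

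The other 4 Runx3 peaks were outside the gene. A pair at 77.7 and 75.5 kb upstream scored 84.0 and 131, the second inside the lncRNA gene Gm42327. On the other side, a peak inside Clic4, which encodes a chloride intracellular channel protein, scored 72.9. A peak of 1230 bp at chr4:135272221-135273450 scored 123, covered the whole Clic4 promoter window and was centred 0.0755 kb outside Clic4. That peak is 94.8 kb from Runx3 and touches another gene's start, so distance alone does not assign it to Runx3.

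Cbfb lies on the plus strand at chr8:105170674-105217989, a span of 47.3 kb, and had the fewest peaks, with the lowest median and the lowest maximum score of the 4 genes. Those inside the gene were 15.9 and 38.8 kb from its start (chr8:105186205-105187006 and chr8:105209113-105209877) and scored 85.1 and 63.7. The third, at chr8:105305586-105306034, scored 110 but was inside Elmo3, 87.8 kb beyond Cbfb. With 1 of its 3 peaks above the median of the list, Cbfb had a median score of 85.1. Its promoter window shared no base with a peak.

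**Figure D2:**
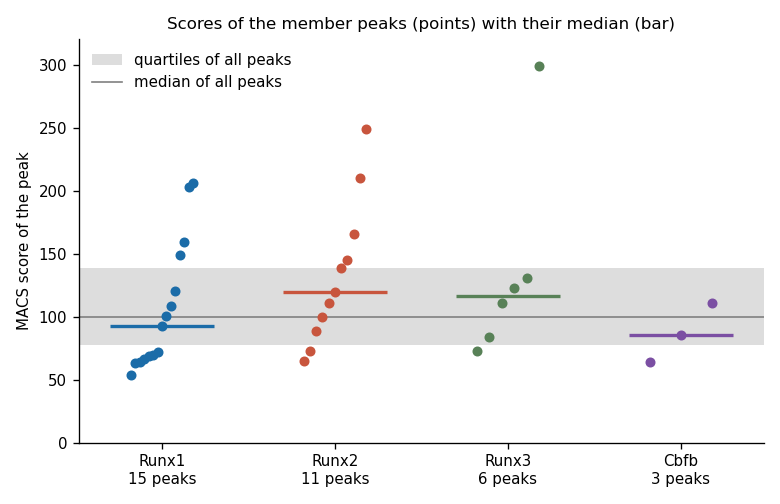
MACS score (y axis) of each peak of the 4 genes, sorted within a gene, with the median of the gene as a bar. The grey band and line are the quartiles and the median of all 17539 peaks. The medians of Runx1 and Cbfb lie below that of the list and those of Runx2 and Runx3 above it, and all 4 fall between the quartiles.

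The scores of the 35 peaks as a set resembled those of the list, with a median of 109 and a range from 53.2 to 299. Their widths ran from 449 to 1750 bp with a median of 802 bp, against 745 bp over the list. The 4 narrowest, 449 to 589 bp wide, carried scores that many other peaks had: the score 110.42 in Cbfb, Runx2 and Runx3 was given to 607 peaks of the list, and 71.57 in Runx1 to 555. Why so many peaks carry these scores was not tested. No member rests on such peaks alone.

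Peaks of Runx1 and Runx2 often came in pairs. With a distance of 2 kb between centres, chosen after the values were seen, Runx1 had 4 pairs and Runx2 had 2. These made up 8 of the 15 Runx1 peaks (53.3%) and 4 of the 11 Runx2 peaks (36.4%), against 13.0% of peaks over the whole list. Runx3 and Cbfb had no such pair. Within 1 kb no member peak had a neighbour (3.31% over the list), and within 5 kb 17 of the 35 did (48.6% against 25.4%). The Runx1 and Runx2 windows had 4.56 and 2.83 times the peak density of their chromosomes, and close neighbours are more frequent where peaks are dense. Peaks in other windows of like density were not compared, so pairing is not shown to be a trait apart from density.

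The number of peaks around each gene was compared with the density of its chromosome. All 4 windows held at least 1 peak, as did 69.9% of the windows of all 21887 protein coding genes, so presence alone says little. Runx1 had 15 peaks where its chromosome's density gave 3.29, a ratio of 4.56 (95% Poisson interval 2.55 to 7.53). Runx2 had 11 against 3.89, a ratio of 2.83 (1.41 to 5.06). Both were called higher by a two-sided exact binomial test with Benjamini-Hochberg adjustment over all protein coding genes, with adjusted p = 0.000249 and 0.0484. Of all protein coding genes, 4.63% were called higher in this way.

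Runx3 and Cbfb were not called. Runx3 had 6 peaks against 1.76, a ratio of 3.41 (95% Poisson interval 1.25 to 7.43, exact binomial test, adjusted p = 0.123). Cbfb had 3 against 1.48, a ratio of 2.03 (0.418 to 5.93, exact binomial test, adjusted p = 0.679). These intervals overlap those of Runx1 and Runx2, and differences between the 4 genes were not tested. No member was called lower, as 0.155% of all genes were, but their windows were too small for such a call. The density of the chromosome gave at most 3.89 peaks, for Runx2. Elsewhere, a window given more than this that held no peak was not called.

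Peaks cluster along the genome and neighbouring windows share peaks, so these p-values cover counting alone and the place among other genes is given beside them. Runx1 had more peaks than 99.6% of the other protein coding genes and than 98.8% of the 998 with a span within 1.5 times its own, whose median was 3 peaks. For Runx2 the shares were 98.7% and 92.4% (669 genes of like span, median 3), for Runx3 90.3% and 89.3% (3325 genes, median 2) and for Cbfb 63.8% and 58.2% (3697 genes, median 2). Among genes of like span, 6.61% were called higher for Runx1 and 6.43% for Runx2. Peaks per Mb of window allow for the length of the gene only in part, because the flanks are fixed. By this density the shares over all other genes were 97.8% for Runx1, 90.6% for Runx3, 88.6% for Runx2 and 68.3% for Cbfb. Among genes of like span they were 98.9% for Runx1, 93.1% for Runx2, 90.9% for Runx3 and 64.8% for Cbfb. Runx3 thus stood above Runx2 by density over all genes. It stood below Runx2 by number, and by density among genes of like span.

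**Figure D3:**
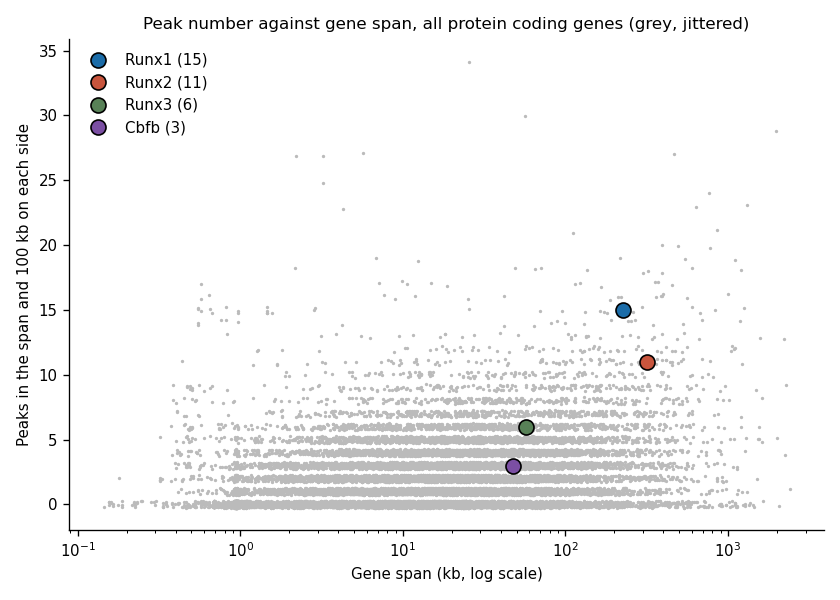
Gene span in kb (x axis, log scale) against the number of GATA4 peaks in the span and 100 kb on each side (y axis). Each grey point is 1 protein coding gene, jittered vertically, and the large points are the 4 members. Runx1 (15 peaks) and Runx2 (11) lie above most genes of their span, while Cbfb (3) lies within the bulk.

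The call for Runx2 was close to the threshold and was lost under 4 of 9 other settings. Without the flanks it held, with 4.60 times the chromosome's density in the gene span (exact binomial test, adjusted p = 0.0131), whereas with 200 kb flanks the ratio was 2.23 (adjusted p = 0.105). With peaks within 2 kb joined into 1, a setting chosen after the data were seen, the ratio was 2.47 (exact binomial test, adjusted p = 0.173). Runx1 kept its call with joined peaks (ratio 3.58, exact binomial test, adjusted p = 0.0191) and lost it among peaks above the median score (7 peaks, ratio 4.53, adjusted p = 0.0721).

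**Figure D4:**
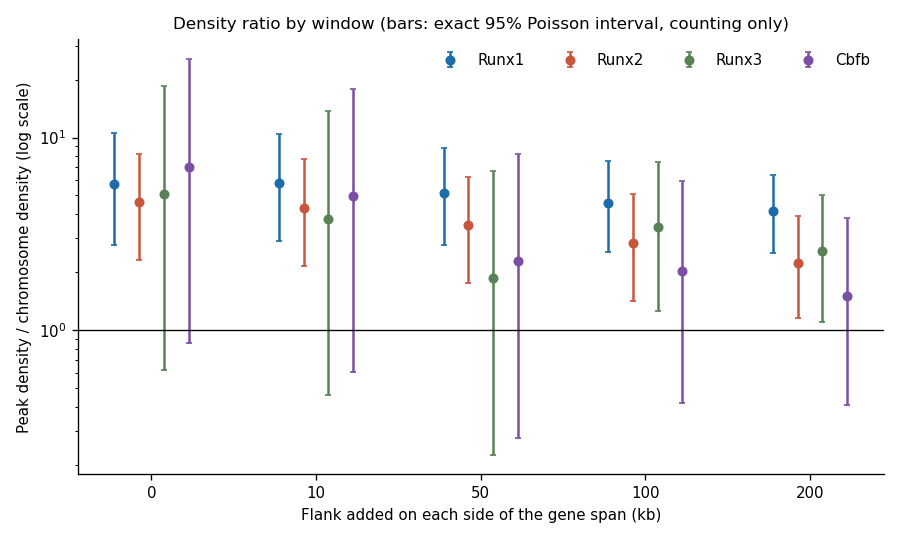
Ratio of the peak density in the window to that of the chromosome (y axis, log scale) by the flank added on each side of the gene span (x axis, kb). Points are the 4 genes and bars are exact 95% Poisson intervals, which cover counting only. The Runx1 ratio runs from 5.75 without flanks to 4.14 with 200 kb, and every Runx1 and Runx2 interval stays above 1.

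The 100 kb limit of the rule did not cut through a group of peaks. The outermost peaks inside it lay 94.8 kb from Runx3, 87.8 kb from Cbfb and 79.6 kb from Runx1. The nearest peaks beyond it were 130 kb from Cbfb, 133 kb from Runx2 and 135 kb from Runx1 and from Runx3.

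The genes of the same chromosome nearest in span to each member had fewer peaks than Runx1 and Runx2. App and Erg, nearest to Runx1 in length, had 4 and 1. Supt3 and Kif6, nearest to Runx2, had 6 and 0. Snapc3 and Ube2r2, nearest to Runx3, had 5 and 1, and Ikbkb and Usp10, nearest to Cbfb, had 3 and 1. None of these 8 was called.

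One promoter window of the 6, that of proximal Runx1, shared a base or more with a peak. Of all windows, 6.10% did. The nearest peak to a listed start was 0.316 kb away for Runx1, 5.61 kb for Runx3, 15.9 kb for Cbfb and 96.1 kb for Runx2. Over 17492 genes the median was 49.5 kb. A peak closer to a start than that of Runx1 was found for 7.05% of genes, and closer than that of Runx2 for 65.9%, so Runx2 had 11 peaks but none near its 1 listed start. The distance for Runx2 leaves out its proximal promoter, which the table does not list, while those of Runx1 and Runx3 take in both. Only 2761 of the 17492 genes have 2 listed starts or more, so these shares set Runx1 mostly against genes with 1. A peak within 1 kb of a start was found for 13.7% of those 2761 genes and for 9.22% of all.

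Each mammalian Runx gene has a Clic and an Rcan gene, members of further families, in its neighbourhood. Clic6 beside Runx1 was called higher, with 8 peaks (ratio 4.25, exact binomial test, adjusted p = 0.0223), but 5 of the 8 also lay in the Runx1 window and none was inside Clic6 itself. Rcan1, an inhibitor of calcineurin, had 7 (ratio 3.30), of which 1 was shared with Runx1. Beside Runx3, 4 of the 5 peaks of Clic4 were shared with it, and Rcan3 had 3 of its own. Clic5 and Rcan2 on the Runx2 side had 3 and 6, none shared. The called window of Clic6 thus consists mostly of peaks of the Runx1 window.

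Partners and regulators of RUNX proteins were counted in the same windows. Of 22 such genes 19 had a peak and 1 was called higher, with a median of 4 peaks against 2 over all protein coding genes. Over all protein coding genes 69.9% had a peak and 4.63% were called higher, so the share called is near that background. The called gene was Smad3, a TGF-beta signal transducer that cooperates with RUNX proteins, with 21 peaks (ratio 8.23, exact binomial test, adjusted p = 1.02e-09). Hipk2, a kinase, had 8, the acetyltransferase gene Crebbp 7, and the corepressor gene Sin3a and the YAP paralog Wwtr1 6 each, none called. Twist1, which restrains RUNX2 in bone, and the corepressors Runx1t1 and Cbfa2t3 had none.

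Genes that RUNX proteins are known to control were counted too, to be read against the 69.9% of all windows with a peak and the 4.63% called higher. Of 12 bone and cartilage genes 9 had a peak and 1 was called, Sp7, the osteoblast factor osterix, with 9 peaks (ratio 5.19, exact binomial test, adjusted p = 0.00435). Bglap (osteocalcin) had 4, Alpl and Col10a1 3 each, and Spp1, Ibsp and Ihh none, and the list's median was 2. Of 10 blood and immune genes 9 had a peak, with a median of 4. Gfi1, a transcriptional repressor in blood progenitors, was the called one with 9 (ratio 6.38, exact binomial test, adjusted p = 0.00138). Spi1, Csf2 and Zbtb7b followed with 5 each, while Cebpa had none. Peaks are not expression, so neither list shows whether these genes were active.

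**Figure D5:**
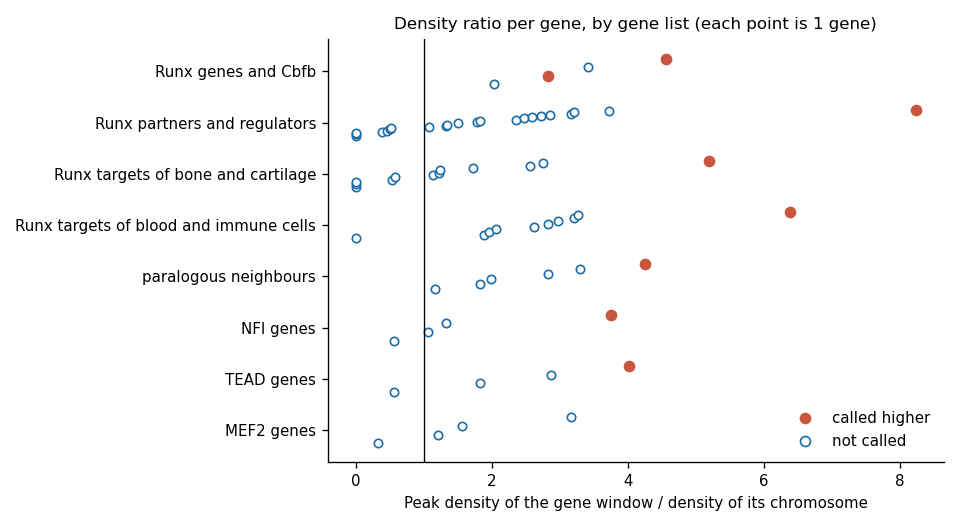
Ratio of the peak density in the gene window to that of its chromosome (x axis) for the 4 members and 7 gene lists (y axis). Each point is 1 gene, filled where it was called higher. Runx1 and Runx2 are the filled points among the members, and each other list has 1 filled point except the MEF2 genes with none.

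Other transcription factor families with roles in muscle were counted in the same windows. Called higher were 1 of 4 NFI genes, 1 of 4 TEAD genes and 0 of 4 MEF2 genes, against 4.63% of all protein coding genes. Differences between the families in these counts were not tested. Nfia had 19 peaks (ratio 3.76) and was called, with 4, 3 and 1 at Nfic, Nfib and Nfix. Tead1 had 11 (ratio 4.01) and was called, with 4, 3 and 1 at Tead2, Tead3 and Tead4. Mef2a had 7 (ratio 3.16, exact binomial test, adjusted p = 0.109) and was not called, with 2, 2 and 1 at Mef2b, Mef2d and Mef2c. The median number of peaks per gene was 8.5 for the Runx genes and Cbfb, 3.5 for the NFI and TEAD genes and 2 for the MEF2 genes. Numbers do not allow for the span of the genes, whereas ratios to the chromosome's density take in the window's length. The median ratio was 3.12 for the Runx genes and Cbfb, 2.35 for the TEAD, 1.38 for the MEF2 and 1.19 for the NFI genes. With 4 genes in each family these medians are a description and were not tested.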

How the data were processed

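GATA4 and IgG ChIP libraries of mouse myoblasts, 1 each, were sequenced. The submitters' processing notes list CASAVA 1.8, Bowtie and the build GRCm38 (mm10). Per the file header, the authors called peaks with MACS in Galaxy and deposited a score per peak. Not given in the sources used here are the MACS version, its threshold and how IgG was used. Starts were made 1-based. Windows were compared with their chromosome (from 3 Mb to the last gene end) by a two-sided exact binomial test in scipy 1.17.1. The test was adjusted over 21887 protein coding genes (threshold 0.05) and tried on simulated data. Simulated counts were drawn separately for each window, without clustering or peaks shared between windows, so they cannot show the effect of either. Gene spans and promoter windows came from RefSeq GRCm38.p6, whose promoter table covers 17492 of these genes. Intervals cover counting error only.

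Members and lists were chosen with earlier results of these data known. Named genes were the members, genes holding or nearest to their peaks, the up to 4 genes of each list with most peaks (ties kept) and those with none, the Clic and Rcan neighbours and, per member, the 2 genes of its chromosome nearest in span. Genes named for their number of peaks near a start were chosen after their values were seen.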

Additional observations from a re-analysis of the deposited data

How the results depend on the processing

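The excess over the chromosome kept its direction for all 4 genes in the 9 alternatives run: flanks of 0, 10, 50 and 200 kb, peaks above the median score, 1 shared base, the density of all autosomes, that of gene spans with flanks and, chosen after seeing the data, peaks within 2 kb joined. Runx3 and Cbfb passed in none of them. Runx1 passed in 8 and missed among peaks above the median score (ratio 4.53). Runx2 passed in 5 and missed with 200 kb flanks (ratio 2.23), among peaks above the median score (4.28), against gene spans with flanks (2.68) and with joined peaks (2.47). The cause was not tested, except that the set above the median score holds fewer peaks. Genes called higher numbered 156 without flanks, 241 with 10 kb, 546 with 50 kb, 1857 with 200 kb, 241 for peaks above the median score and 660 with joined peaks, against 1013 as reported. The full GATA words were in 0 member promoter windows and the letters GATA alone in 1. No paired analysis was possible because there was 1 library per antibody and the peak list comes from 1 of them. Depth is unknown.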
